A study of Homo sapiens with 6 samples.

Results

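The genes described are the core spliceosome and snRNP protein genes, the protein parts of the machine that removes introns from pre-mRNA. They were chosen by name, as the protein-coding genes whose symbol begins with SNRP, SF3A or SF3B and a digit, PRPF and a digit, LSM and a digit, or U2AF and a digit. The rule found 51 genes among the 58302 genes of the table, of which 19817 are protein-coding. The name also fits 67 processed pseudogenes, which are not members.

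Each spliceosomal small nuclear RNA carries a ring of Sm proteins, except U6, which carries a ring of LSM2 to LSM8, and together with further proteins it forms a small nuclear ribonucleoprotein (snRNP). U1 reads the 5′ splice site, U2 with the SF3A and SF3B complexes sits on the branch point, and U2AF reads the end of the intron. The U4/U6.U5 tri-snRNP then joins, and the PRPF19 complex and other PRPF proteins bring the assembly to catalysis. Transformed cells need this machinery for growth, and SF3B1 and U2AF1 are among the genes that are mutated in human cancers.

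The RNA came from MDA-MB-231-DR, doxorubicin-resistant cells derived from MDA-MB-231, a line of triple-negative breast cancer, which the study kept in medium with a low concentration of doxorubicin. There were 3 control libraries and 3 libraries of cells treated with cyperotundone (CYT), a compound from sedge that the study examined as a way to overcome drug resistance. The CYT dose and the treatment time of these libraries were not given in the sources used here, and all libraries came from 1 cell line. Nothing in the labels ties the libraries of a group to separate cultures, and the study's statistical methods speak of independent experiments in general without naming these libraries, so the p-values measure the spread between these libraries, which may be technical.

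The control libraries held 14050849 to 17770102 counts each and the CYT libraries 13056270 to 14106017. The 4 genes taken as markers of the module, SF3B1, SNRPA, PRPF8 and U2AF2, were counted in every library, with a minimum of 87 counts (SNRPA in CYT replicate 2). VIM, CD44, AXL and CAV1, which mark the mesenchymal MDA-MB-231 line, had at least 926 counts in every library. ESR1, PGR, CDH1, EPCAM and the leukocyte gene PTPRC reached at most 16 counts in any library, and the endothelial gene PECAM1 had 8 to 35. Of the mesenchymal markers, VIM and AXL fell with CYT (log2 fold changes −1.30 and −0.82, edgeR adjusted p = 0.00535 and 0.0444), while CAV1 (−1.03, 0.0826) and CD44 (−0.19, 0.639) were not called. The part of this in the results below was not tested.

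Of the 51 genes, 50 had enough counts to be tested, and the exception was SNRPN. The test was edgeR's quasi-likelihood test of CYT against control on raw counts, and a gene is called here when its p, adjusted by the Benjamini-Hochberg method over all 15572 genes tested, was under 0.05. More of these genes were lower with CYT than higher: 14 of 50 were called lower (28%) and 2 were called higher (4%). Over all genes tested, 12.9% were called lower, 15.7% higher and 28.6% in either direction, so the members' total of 32% lay near the background. The members are protein-coding, and among the 12755 protein-coding genes tested 14.6% were called lower and 12.5% higher, a background with more lower than higher calls. With the further limit of an absolute log2 fold change over 1, which the study uses for differentially expressed genes (DEGs), 13 members were lower and 1 was higher, beside 12.2% and 15.2% of all genes. These are counts over a list chosen by name, and no test of the list as a whole was made.

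The median log2 fold change of the 50 members was −0.49, against 0.01 over all genes tested and −0.07 over the 12755 protein-coding genes tested. The value was below 0 for 34 of 50 members, beside 49.7% of all genes. Every CYT library lay below every control library for 19 members (38%, all genes 22.7%), and every CYT library lay above for 5 (all genes 23.4%). The members took 0.671% to 0.749% of all counts in control and 0.552% to 0.562% in CYT. In these bulk libraries, fewer cells of a type and less RNA per cell cannot be told apart.

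**Figure D1:**
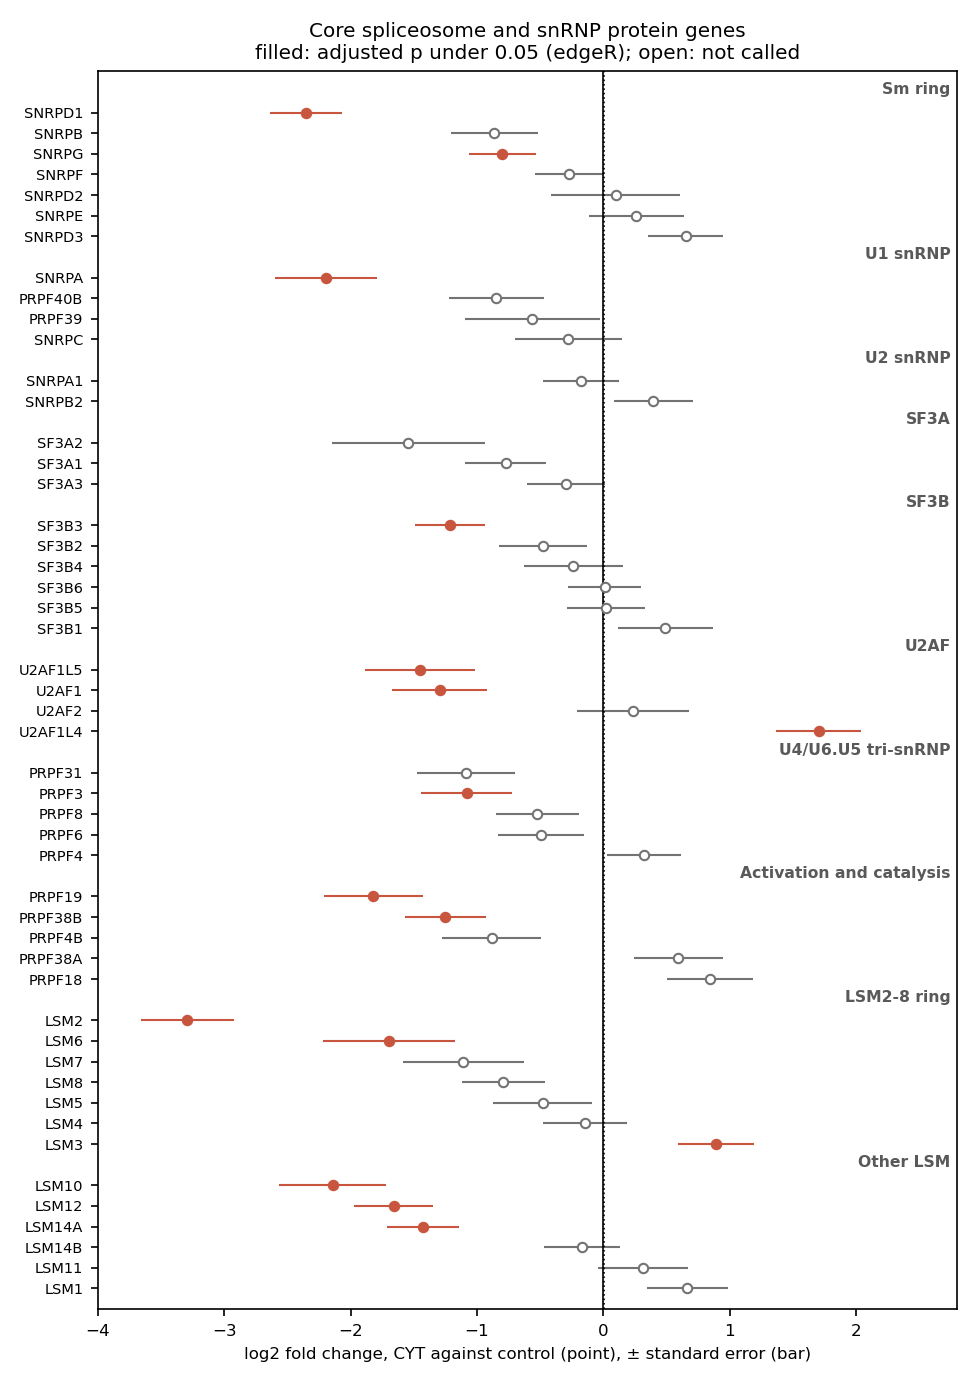
Log2 fold change of CYT against control on the x axis for 49 of the 50 members tested, grouped by role on the y axis, with bars of 1 standard error; filled points were called and open points were not, and the dotted line is the median of all genes tested. LSM2 lies farthest to the left at −3.29, and U2AF1L4 farthest to the right at 1.71.

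**Figure D2:**
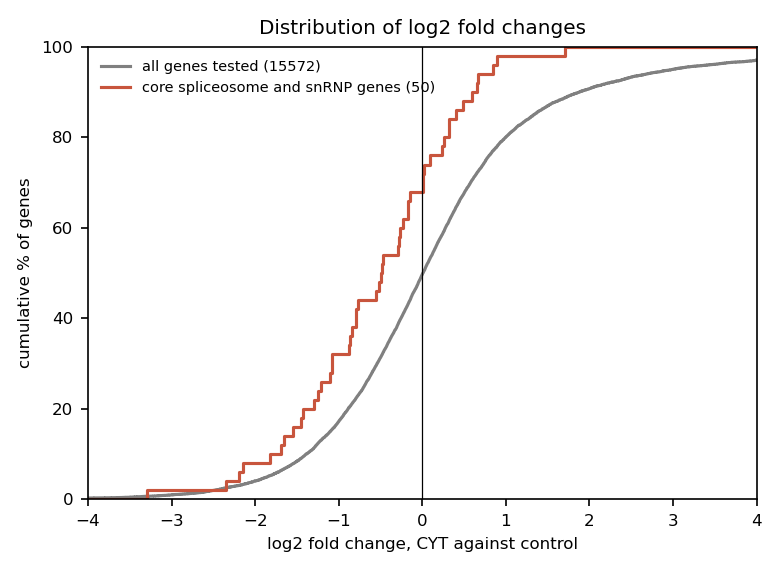
Cumulative percent of genes (y axis) by log2 fold change of CYT against control (x axis), for the 50 members in red and the 15572 genes tested in grey, with x cropped at −4 and 4. The red line runs above the grey one over most of the range below 0, with medians of −0.49 and 0.01.

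These counts moved with the processing and with the libraries used. With the replicate number as a block, 20 members were called lower and 3 higher, while the background rose to 19.8% lower and 20% higher. With a correction for GC content and transcript length, 25 members were lower and 2 higher, on a background of 26% lower and 21.2% higher. Both together gave 26 lower and 2 higher (25.5% and 20.6% of all genes). Under upper-quartile normalization 11 members were lower and 2 higher (10.4% and 18.5%). The median over all genes moved to 0.16 under upper-quartile normalization and to −0.11 under the GC correction, and the members' median was −0.34 and −0.73 in those fits. Without the filter on low counts the median over 32060 genes was 0.41.

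Sequence upstream of the genes is shown for 5 members, so that windows of called and uncalled genes can be compared. LSM2, LSM10 and U2AF1 were called lower, and PRPF6 and SF3B5 were not called. Each run is the 250 bases before the annotated RefSeq start (GRCh38.p14), 5′ to 3′ on the gene's strand, and overlaps at most 18 bases of an annotated exon. Capitals mark the ETS motif CCGGAAG, the GC box GGGCGG and the CCAAT box CCAAT, each searched on both strands.
LSM2, chr6:31806967-31807216, minus strand: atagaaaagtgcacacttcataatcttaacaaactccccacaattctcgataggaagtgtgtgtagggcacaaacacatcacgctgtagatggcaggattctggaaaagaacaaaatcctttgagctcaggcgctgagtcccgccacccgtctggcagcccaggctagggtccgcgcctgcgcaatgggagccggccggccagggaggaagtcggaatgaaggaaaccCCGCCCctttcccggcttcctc
LSM10, chr1:36397909-36398158, minus strand: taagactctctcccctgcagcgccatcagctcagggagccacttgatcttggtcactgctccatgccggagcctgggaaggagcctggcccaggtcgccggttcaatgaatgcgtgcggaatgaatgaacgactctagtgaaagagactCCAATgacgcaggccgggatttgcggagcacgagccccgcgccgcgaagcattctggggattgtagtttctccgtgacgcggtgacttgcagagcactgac
U2AF1, chr21:43107571-43107820, minus strand: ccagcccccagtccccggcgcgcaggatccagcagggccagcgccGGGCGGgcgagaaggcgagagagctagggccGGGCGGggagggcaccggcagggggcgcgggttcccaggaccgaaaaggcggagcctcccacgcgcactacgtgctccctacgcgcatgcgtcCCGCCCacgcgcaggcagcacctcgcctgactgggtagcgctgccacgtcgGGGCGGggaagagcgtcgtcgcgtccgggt
PRPF6, chr20:63980882-63981131, plus strand: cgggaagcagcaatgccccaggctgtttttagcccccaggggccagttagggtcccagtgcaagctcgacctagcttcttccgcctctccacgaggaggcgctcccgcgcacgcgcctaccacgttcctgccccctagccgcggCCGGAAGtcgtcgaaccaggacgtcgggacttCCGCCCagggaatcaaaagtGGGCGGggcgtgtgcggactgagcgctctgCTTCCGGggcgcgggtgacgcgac
SF3B5, chr6:144095574-144095823, minus strand: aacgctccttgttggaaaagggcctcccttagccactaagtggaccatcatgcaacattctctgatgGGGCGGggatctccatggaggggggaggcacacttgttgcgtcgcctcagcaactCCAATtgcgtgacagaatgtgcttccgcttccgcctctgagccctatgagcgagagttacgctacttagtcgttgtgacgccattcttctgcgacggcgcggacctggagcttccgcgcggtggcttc

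PRPF6 holds 2 ETS motifs and 2 GC boxes, U2AF1 holds 4 GC boxes, LSM2 holds 1 GC box, LSM10 holds 1 CCAAT box, and SF3B5 holds 1 GC box and 1 CCAAT box. An upstream window was found for 41 of the 51 members, and those with no window include LSM1, LSM6, LSM14A, PRPF3, PRPF39, PRPF4B, SF3B3, SNRPD1 and U2AF1L5. The ETS motif was in 18 of the 41 windows (43.9%), beside 14.2% of the windows of the 14888 protein-coding genes with an entry. It was in 1 of the 8 windows of members called lower (SNRPG), in 0 of 2 called higher and in 17 of 30 not called. The GC box was in 61% of the members' windows (63.2% of all), the CCAAT box in 41.5% (40.4%) and the TATA box, TATAAA, in 2.44% (11.6%), and none of the 4 motifs contains another. The motifs were chosen with the members' values known, a match is letters in a window, and no binding was measured.

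The Sm ring is built of SNRPB, SNRPD1, SNRPD2, SNRPD3, SNRPE, SNRPF and SNRPG, with SNRPN as a close relative of SNRPB that is best known from brain. SNRPD1, one of the subunits that the SMN complex loads onto the small nuclear RNA, had 1943, 2898 and 1897 counts in the control libraries and 360, 409 and 328 in the CYT libraries, here and below in the order of replicates 1, 2 and 3. The highest CYT library was far below the lowest control library. SNRPD1 (chr18:21612267-21633524, GRCh38) fell 5.10-fold (log2 fold change −2.35, SE 0.29, edgeR adjusted p = 0.00081). It was called in every alternative analysis.

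Of the other Sm genes, only SNRPG was called, lower by a small margin: 3147 to 4014 counts in control and 1699 to 1784 in CYT (log2 fold change −0.80, SE 0.27, edgeR adjusted p = 0.0486). That call did not hold when any one library other than CYT replicate 2 was left out (adjusted p = 0.0679 to 0.147), and was made in only 8 of the 18 alternative analyses. SNRPB had 12418 to 20204 counts in control and 4116 to 8540 in CYT, with no overlap but no call (log2 fold change −0.86, adjusted p = 0.088 in edgeR). SNRPB was called lower with the GC correction (log2 fold change −1.21, edgeR adjusted p = 0.00477) and with that correction and the block (−1.17, 0.0133). SNRPD3 lay higher in every CYT library without a call (log2 fold change 0.65, edgeR adjusted p = 0.126). The SNRPD2, SNRPE and SNRPF groups overlapped, with log2 fold changes of 0.10, 0.26 and −0.27, and SNRPF was called lower with the GC correction (−0.81, edgeR adjusted p = 0.0307). SNRPD2 was counted 9708 times in CYT replicate 2 against 3710 and 2941 in the other CYT libraries, and its difference without that library was −0.58.

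Per length, in FPKM as deposited, SNRPD1 was the lowest of the 7 Sm genes in both groups, at 21.3 ± 4.0 (SD, n = 3) in control and 4.22 ± 0.58 in CYT. SNRPE stood next at 25.1 ± 9.97 in control, within its spread of SNRPD1, and at 30.5 ± 13.3 in CYT, where it was above SNRPD1 in every library. SNRPB was at 582 ± 108 in control and 318 ± 107 in CYT. These FPKM ranks rest on the lengths implied by count and FPKM, such as 6428 bases for SNRPD1 and 2875 for SNRPE. Their longest annotated transcripts have 4909 and 967 bases. In control CPM, SNRPD1 (136.7 ± 16.9) was above SNRPE (71.6 ± 23.9) and SNRPD3 (99.2 ± 7.8). In CYT, SNRPD1 was the lowest of the 7 in CPM as well, at 26.8 ± 2.0. SNRPN was listed at 0 in all 6 libraries. The bicistronic partner SNURF was also at 0, and SNHG14, which spans the same locus on the same strand, had at most 4 counts. SNRPN shares exon bases with SNURF, and how shared reads were counted is not given in the sources used here.

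The LSM2 to LSM8 ring closes on the 3′ end of U6 in the nucleus. LSM2 (chr6:31797396-31806984, minus strand) changed most of all members. It had 2583, 2141 and 1698 counts in control and 254, 123 and 173 in CYT, groups that lay far apart. The level went from 131.8 ± 24.6 CPM to 13.4 ± 4.6 CPM (SD, n = 3), a 9.80-fold fall (log2 fold change −3.29, SE 0.37, edgeR adjusted p = 0.000613).

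LSM6, another ring subunit, had 135, 616 and 156 counts in control and 78, 92 and 52 in CYT. The groups did not overlap after scaling, but control replicate 2 stood well above the others. LSM6 was called lower (log2 fold change −1.69, SE 0.52, edgeR adjusted p = 0.0372). Without control replicate 2 the difference was −0.88 (adjusted p = 0.136), and the call was also lost without CYT replicate 1 (0.0863) or CYT replicate 3 (0.121). With all libraries LSM6 was also not called under upper-quartile scaling (0.0533), a mean of at least 5 CPM (0.0548) or limma on FPKM (0.112 and 0.0908).

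LSM3 lay on the other side, with 3326, 2582 and 2350 counts in control and 4094, 3722 and 5009 in CYT. Every CYT library was above every control library, and LSM3 was called higher by a small margin (log2 fold change 0.89, SE 0.30, edgeR adjusted p = 0.0495). The call was kept only without CYT replicate 2 and lost without any other library (adjusted p = 0.0741 to 0.155). LSM3 shares exon bases with XPC on the opposite strand, which had 179 to 239 counts in any library.

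LSM8, the subunit that makes the ring nuclear, had 271, 428 and 379 counts in control and 210, 196 and 124 in CYT. Its groups did not overlap, and it was not called (log2 fold change −0.79, edgeR adjusted p = 0.103) except with the GC correction (0.0368; 0.0328 with the block). LSM7 had 296 to 907 counts in control and 192 to 292 in CYT, a difference of −1.11 that was not called (edgeR adjusted p = 0.113), but was called with the replicate block (0.0358), without control replicate 2 (0.0252) and with the GC correction without and with the block (0.0223 and 0.0497). LSM4 and LSM5 overlapped between groups (log2 fold changes −0.15 and −0.48), and LSM5 was called lower with the GC correction (−0.85, edgeR adjusted p = 0.0121).

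In FPKM as deposited, the order of the ring subunits changed. In control, LSM2 was highest at 74.1 ± 9.3 FPKM, followed by LSM4 at 56.8 ± 8.1 and LSM3 at 44.1 ± 6.1. The lengths implied by count and FPKM are 1755, 5026 and 3815 bases for LSM2, LSM4 and LSM3. Their longest annotated transcripts have 876, 1908 and 3815 bases, so the FPKM order holds only for the implied lengths. In CPM the control order was LSM4 (289.6 ± 59.6), LSM3 (170.5 ± 34.3) and LSM2 (131.8 ± 24.6). In CYT, LSM3 was highest at 82.9 ± 12.96 FPKM, and LSM4 stood at 51.7 ± 14.6. LSM2 was at 7.66 ± 2.46 FPKM in CYT, within its spread of LSM5 (7.36 ± 3.65) and LSM7 (6.84 ± 1.32). This order too holds only for the implied lengths. In CPM the CYT means were 316.5 ± 70.8 for LSM3, 261.9 ± 91.6 for LSM4 and 13.4 ± 4.6 for LSM2. LSM5 and LSM7 were at 54.4 ± 24.2 and 18.7 ± 4.8 CPM. LSM6 and LSM8 were the lowest in both groups, at 3.16 ± 2.60 and 3.07 ± 0.81 FPKM in control and 0.972 ± 0.281 and 1.80 ± 0.46 in CYT.

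**Figure D3:**
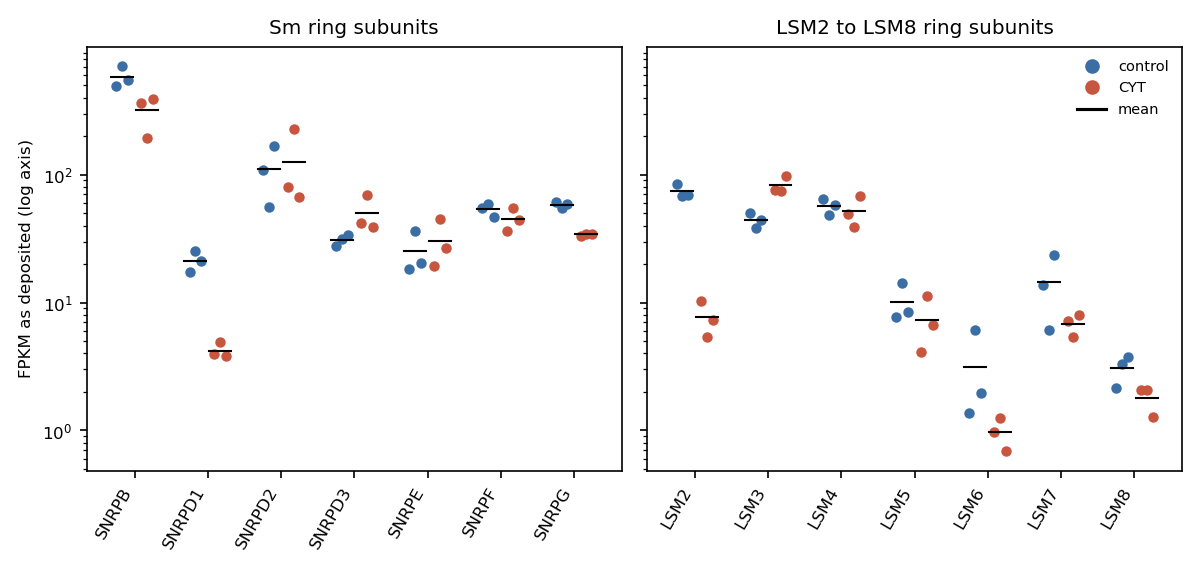
FPKM as deposited on a log y axis for the subunits of the Sm ring (left) and of the LSM2 to LSM8 ring (right), with 1 point per library, control in blue and CYT in red, and the mean as a black line. In the left panel SNRPD1 is the lowest in CYT at a mean of 4.22; in the right panel LSM2 goes from 74.1 to 7.66 while LSM3 goes from 44.1 to 82.9.

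LSM proteins outside this ring include LSM1, LSM10, LSM11, LSM12, LSM14A and LSM14B, and 3 of the 6 were called lower (all genes 12.9%), too few for the share to be read as a result about them. LSM10, which with LSM11 replaces Sm subunits in the U7 snRNP that cuts histone pre-mRNA, had 950, 774 and 1006 counts in control and 269, 94 and 169 in CYT. No CYT library came near the control libraries, and LSM10 (chr1:36391238-36397892, minus strand) fell 4.41-fold (log2 fold change −2.14, SE 0.42, edgeR adjusted p = 0.00555). Its U7 partner LSM11 had 162 to 303 counts in control and 155 to 325 in CYT, overlapping groups (log2 fold change 0.31, edgeR adjusted p = 0.543).

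LSM14A, a P-body protein of mRNA storage and decay, varied little within a group, with 504, 576 and 457 counts in control and 168, 152 and 159 in CYT. The spread within each group was small beside the gap. Its level was 31.5 ± 1.1 CPM in control and 11.7 ± 0.9 CPM in CYT (log2 fold change −1.42, SE 0.28, edgeR adjusted p = 0.00571). The paralog LSM14B had 1213, 847 and 846 counts in control and 820, 692 and 683 in CYT, and was not called (log2 fold change −0.17, edgeR adjusted p = 0.71).

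LSM12, an LSM-domain protein outside the rings, had 886, 1561 and 697 counts in control and 300, 276 and 237 in CYT. The groups lay apart (log2 fold change −1.66, SE 0.31, edgeR adjusted p = 0.00445). Its processed pseudogene LSM12P1 had 561, 472 and 485 counts in control and 104, 96 and 113 in CYT, 31.6% of the summed reads of LSM12 and the pseudogene, and how reads were divided between the copies is not known. LSM1, which takes the place of LSM8 in the cytoplasmic ring that promotes decapping of mRNA, had 445, 790 and 599 counts in control and 689, 1082 and 671 in CYT. Every CYT library was above every control library after scaling, without a call (log2 fold change 0.67, edgeR adjusted p = 0.152).

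Among U1 snRNP proteins, SNRPA was the one called. Its protein binds a stem loop of U1 RNA. It had 842, 938 and 894 counts in control and 181, 87 and 219 in CYT. The control libraries were close to each other and all CYT libraries were far below, and SNRPA (chr19:40750637-40765389) fell 4.58-fold (log2 fold change −2.19, SE 0.40, edgeR adjusted p = 0.0039). SNRPA shares exon bases with C19orf54 on the opposite strand, which had 58 to 163 counts in any library.

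The U1 protein SNRPC, which contacts the 5′ splice site, had 1672 to 2490 counts in control and 728 to 1913 in CYT, overlapping groups (log2 fold change −0.28, edgeR adjusted p = 0.664). PRPF40B, a U1-associated protein, had 183, 168 and 167 counts in control and 105, 50 and 88 in CYT, with no overlap. PRPF40B shares exon bases with FMNL3 on the opposite strand, which had 630 to 1165 counts, more than PRPF40B in every library. PRPF40B was not called (log2 fold change −0.85, edgeR adjusted p = 0.121), but was called with the replicate block (0.0394) and with the GC correction alone (0.0327), and not with both together (0.0563). PRPF39 overlapped between groups and was called lower only without CYT replicate 2 (log2 fold change −1.43, edgeR adjusted p = 0.0248) or with the GC correction and block together, against −0.56 and 0.466 with all libraries.

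Neither U2-specific protein was called. SNRPB2, the U2 relative of SNRPA, had 895, 1264 and 1049 counts in control and 912, 1610 and 1033 in CYT (log2 fold change 0.40, edgeR adjusted p = 0.374). SNRPA1 had 498 to 591 counts in control and 275 to 528 in CYT (log2 fold change −0.18, edgeR adjusted p = 0.7). Both pairs of groups overlapped after scaling.

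The SF3A and SF3B complexes bind U2 at the branch point, and 1 of their 9 genes was called, against 28.6% of all genes in either direction and 12.9% lower. SF3B3, a scaffold subunit of SF3B, had 7592, 6634 and 4775 counts in control and 2705, 2101 and 2054 in CYT. All CYT libraries lay below all control libraries (log2 fold change −1.21, SE 0.28, edgeR adjusted p = 0.0109), and SF3B3 (chr16:70523788-70577670) was called in every alternative analysis.

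SF3B1, the subunit that clasps the branch helix, had 2050, 2910 and 1962 counts in control and 2077, 4478 and 1627 in CYT. The groups overlapped, CYT replicate 2 was the highest of all 6, and SF3B1 was not called (log2 fold change 0.49, SE 0.37, edgeR adjusted p = 0.356). Without CYT replicate 2 the difference was −0.04 (adjusted p = 0.913). SF3B2, SF3B4, SF3B5 and SF3B6 overlapped between groups, with log2 fold changes from −0.47 (SF3B2) to 0.02 (SF3B5).

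SF3A1, which links SF3A to U2, had 3159, 2309 and 2041 counts in control and 1560, 929 and 1217 in CYT, with no overlap. It was not called (log2 fold change −0.77, edgeR adjusted p = 0.0994), but was called with the replicate block (0.0277) and with the GC correction without and with the block (0.016 and 0.0109). SF3A2 had 596 to 1754 counts in control and 111 to 522 in CYT, overlapping after scaling, and the wide spread went with an uncalled difference of −1.54 (edgeR adjusted p = 0.0843). With the replicate block SF3A2 was called (log2 fold change −1.65, adjusted p = 0.00149 in edgeR), and likewise without control replicate 2 (adjusted p = 0.0438), with DESeq2 (0.0312), with no filter (0.0337) and with the GC correction without and with the block (0.00483 and 0.00206). SF3A3 was not called (log2 fold change −0.29).

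U2AF holds a large subunit, U2AF2, on the polypyrimidine tract and a small subunit, U2AF1, on the AG at the end of the intron. U2AF1 (chr21:43092956-43107587, minus strand) had 1050, 553 and 682 counts in control and 326, 192 and 275 in CYT, without overlap. It was called lower (log2 fold change −1.29, SE 0.38, edgeR adjusted p = 0.029), but not when control replicate 1 or 3 or CYT replicate 1 or 3 was left out (adjusted p = 0.0567 to 0.113).

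U2AF1L5 is a near-identical copy of U2AF1 on the same chromosome (chr21:6484623-6499261, minus strand), with 565, 317 and 616 counts in control and 237, 113 and 131 in CYT. It was also called lower (log2 fold change −1.45, SE 0.44, edgeR adjusted p = 0.033), but not without control replicate 1, control replicate 3 or CYT replicate 3 (adjusted p = 0.0879 to 0.124). The copies share reads that the files do not divide with certainty, so these 2 calls are not separate observations. Their summed counts were 1615, 870 and 1298 in control and 563, 305 and 406 in CYT.

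U2AF2 had 6139, 4023 and 5747 counts in control and 6955, 2332 and 6658 in CYT. Its groups overlapped, with CYT replicate 2 the lowest of all libraries, and it was not called (log2 fold change 0.23, SE 0.45, edgeR adjusted p = 0.728). U2AF1L4 encodes U2AF26, a relative of the small subunit that can replace it on some introns, and was the 1 member that was a DEG in the upward direction. It had 84, 68 and 67 counts in control and 169, 216 and 217 in CYT, a low level but with no overlap, and rose 3.26-fold (log2 fold change 1.71, SE 0.34, edgeR adjusted p = 0.00549). U2AF1L4 (chr19:35742464-35745445, minus strand) overlaps PSENEN on the opposite strand, with 482 to 1476 counts and no call, and AD000671.2 on its own strand, with 0 to 1 counts in control and 9 to 31 in CYT. Whether the counting used strand is not given in the sources used here, and the part of these neighbours in the rise was not tested.

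In the U4/U6.U5 tri-snRNP, PRPF3 of the U4/U6 particle had 1090, 888 and 1237 counts in control and 625, 349 and 345 in CYT, without overlap. It was called by a small margin (log2 fold change −1.08, SE 0.36, edgeR adjusted p = 0.0479), and not without control replicate 1, control replicate 3, CYT replicate 2 or CYT replicate 3 (adjusted p = 0.0608 to 0.178). With all libraries PRPF3 was also not called under upper-quartile scaling (0.0789), RLE scaling (0.0553), a mean of at least 5 CPM (0.071) or protein-coding genes only (0.0689). PRPF31, which holds U4 and tri-snRNP together, had 2291 to 3820 counts in control and 758 to 1514 in CYT, also without overlap. It just missed the threshold (log2 fold change −1.09, edgeR adjusted p = 0.0617) and was called in 8 of 18 alternative analyses: with the replicate block (0.00674), without control replicate 2 (0.0421), with DESeq2 (0.036), with no filter (0.0438), with limma on both FPKM scales (0.0456 and 0.0457) and with the GC correction without and with the block (0.00205 and 0.00385).

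PRPF8, the U5 scaffold around the catalytic core, had 9264, 5933 and 4560 counts in control and 4246, 3154 and 4088 in CYT. The groups overlapped after scaling, and PRPF8 was not called (log2 fold change −0.52, SE 0.33, edgeR adjusted p = 0.26). PRPF6, which bridges U5 and U4/U6, overlapped as well (log2 fold change −0.49), and so did PRPF4, the partner of PRPF3 (log2 fold change 0.32, edgeR adjusted p = 0.438).

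Among the genes of activation and catalysis, PRPF19 and PRPF38B were called lower. PRPF19, the ubiquitin ligase of the complex that stabilises the active spliceosome, had 5634, 3835 and 3728 counts in control and 1509, 603 and 1049 in CYT. The groups were far apart, and PRPF19 (chr11:60890730-60906588, minus strand) fell 3.53-fold (log2 fold change −1.82, SE 0.39, edgeR adjusted p = 0.0078).

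PRPF38B had 486, 885 and 438 counts in control and 249, 217 and 160 in CYT, with no overlap (log2 fold change −1.25, SE 0.32, edgeR adjusted p = 0.0172). The call was lost without control replicate 2 (adjusted p = 0.0569) and without CYT replicate 3 (0.0728). PRPF38A, a protein of the precatalytic B complex with which it shares a domain, had 453, 535 and 579 counts in control and 682, 955 and 406 in CYT. Its groups overlapped (log2 fold change 0.60, edgeR adjusted p = 0.234).

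PRPF4B, a kinase that phosphorylates tri-snRNP proteins, had 352 to 854 counts in control and 158 to 353 in CYT, and was not called (log2 fold change −0.88, edgeR adjusted p = 0.121) except with the replicate block (0.0246), without CYT replicate 2 (0.0271) or with the GC correction. PRPF18, a factor of the second catalytic step, lay higher in every CYT library, at 188 to 290 counts in control and 253 to 496 in CYT. It was not called (log2 fold change 0.85, edgeR adjusted p = 0.0887) but was with the replicate block (0.0384). PRPF18 was at 0.42 with the GC correction, without a call either alone (adjusted p = 0.0924 in edgeR) or with the block added (0.119).

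**Figure D4:**
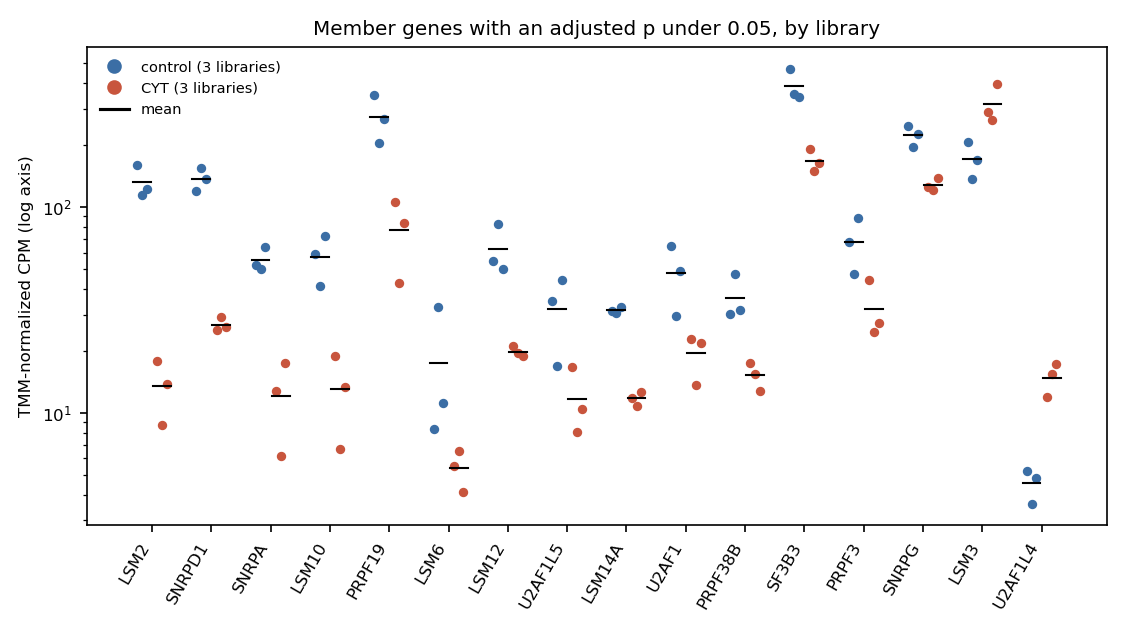
TMM-normalized CPM on a log y axis for the 16 called members, ordered by log2 fold change on the x axis, with 1 point per library, control in blue and CYT in red, and the mean as a black line. In each of the 16 genes the 3 CYT points and the 3 control points do not overlap, as for LSM2 at means of 131.8 and 13.4 CPM and U2AF1L4 at 4.54 and 14.8 CPM.

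Ratios between partners or paralogs within each library do not depend on the scaling between libraries, and 8 pairs could be computed (SNRPN to SNRPB could not, with SNRPN at 0). The pairs were chosen with the members' values known and several join a called gene with one that was not called, so the ratios describe the data and support nothing further. In 7 of the 8 pairs, which are given below, the control and CYT ratios did not overlap. The exact permutation test over libraries was two-sided, and its smallest p with 3 against 3 is 0.1, so no pair could pass 0.05. The 7 pairs were at p = 0.1 in that exact test, or 0.114 after Benjamini-Hochberg adjustment over 8 pairs.

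The FPKM ratio of SNRPB2 to SNRPA was 1.501, 1.90 and 1.66 in control and 7.12, 26.1 and 6.66 in CYT, a 6.40-fold difference of means on the log2 scale (2.68). Every CYT ratio was above every control ratio, and without CYT replicate 2 the log2 difference was 2.04. The ratio of U2AF1L4 to U2AF1 was 0.101, 0.156 and 0.124 in control and 0.657, 1.43 and 0.9995 in CYT (log2 difference 2.97). The reads listed for the copy U2AF1L5 are not in it. The lengths implied by count and FPKM, 12580 and 15935 bases, exceed the longest annotated transcripts of 2582 and 4694 bases. The ratio therefore shows a change between groups, and not which gene was higher. The ratio of U2AF1 to U2AF2 was 0.0651, 0.0524 and 0.0452 in control and 0.0179, 0.0314 and 0.0157 in CYT (log2 difference −1.38).

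LSM1 to LSM8, the subunits that set the cytoplasmic or nuclear form of the ring, stood at 2.62, 2.95 and 2.52 in control and 5.24, 8.81 and 8.64 in CYT (log2 difference 1.45). All CYT ratios were higher, although neither gene was called on its own. LSM14B to LSM14A stood at 5.58, 3.41 and 4.29 in control and 11.3, 10.6 and 9.96 in CYT (log2 difference 1.29). PRPF38B to PRPF38A stood at 0.826, 1.27 and 0.583 in control and 0.281, 0.175 and 0.303 in CYT (log2 difference −1.79).

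SF3A1 to SF3B1 stood at 2.20, 1.13 and 1.48 in control and 1.07, 0.296 and 1.07 in CYT, a narrow gap (log2 difference −1.15) that was −0.53 without CYT replicate 2.

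**Figure D5:**
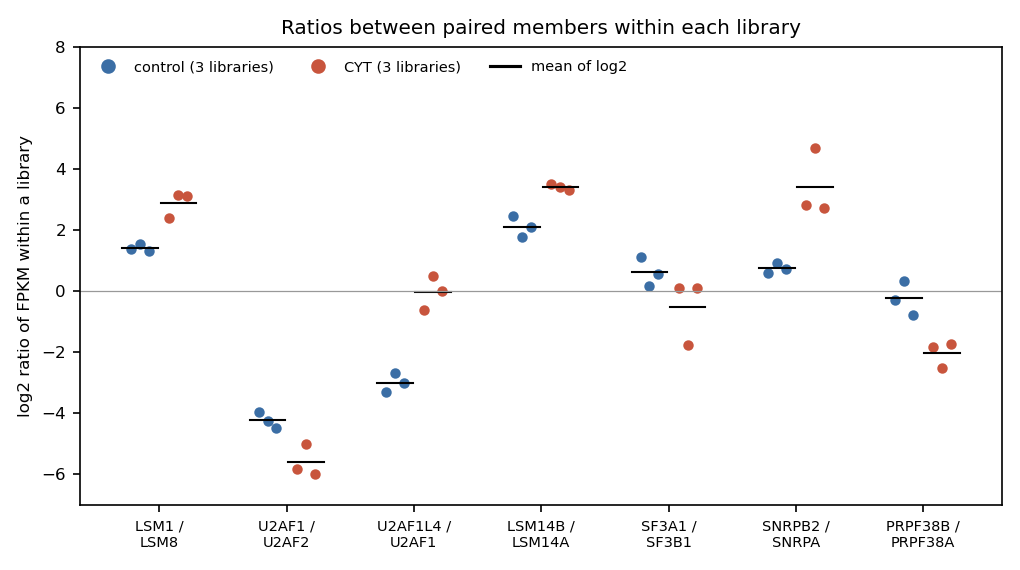
Log2 of the FPKM ratio of paired members within a library (y axis) for 7 pairs (x axis), with 1 point per library, control in blue and CYT in red, and the mean of log2 as a black line. Blue and red points are apart in each of the 7 pairs, and U2AF1L4 to U2AF1 goes from a mean of −3.00 to −0.03.

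CYT replicate 2 was the library farthest from the other 2 of its group for 31 of the 50 members, and control replicate 2 likewise for 31. Without CYT replicate 2, 15 members were called lower and 2 higher, on a background of 17% lower and 18.6% higher among all genes of that fit. Without CYT replicate 3, 8 were lower and 1 higher (all genes 7.64% and 12.2%), and without CYT replicate 1, 11 and 1 (8.48% and 12.3%). Leaving out control replicate 1 gave 10 lower and 1 higher (7.41% and 10.9%), control replicate 2 gave 14 and 1 (10.2% and 13.1%), and control replicate 3 gave 10 and 1 (7.36% and 10.3%). The share of all genes called lower was also at its highest without CYT replicate 2. Of the 16 called members, LSM2, LSM10, LSM12, LSM14A, PRPF19, SF3B3, SNRPA, SNRPD1 and U2AF1L4 were called in all 18 alternative analyses, and none of the 16 changed sign in any of them. The share of all called genes that held in all 18 was not computed, so this cannot be read as a trait of the members. The groups of the 16 did not overlap, which left little room for a change of sign without 1 library.

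The members' log2 fold changes were set against simple gene properties. Over the 50 genes, which share the same 6 libraries, Pearson's r was −0.125 with GC content, −0.0951 with log2 control CPM and −0.0325 with log2 of the length implied by count and FPKM, and Spearman's rho was −0.107, 0.0321 and −0.148. These are descriptions across genes, which are not independent replicates. Exon bases were shared with another gene by 21 members, on the same strand for 5 and on the opposite strand for 19. FKBP3, opposite PRPF39, had 951 to 1783 counts, more than PRPF39 in every library. SPPL2B, opposite LSM7, had 195 to 977 counts, more than LSM7 in every CYT library and in control replicate 2. GUCD1 (opposite strand, 373 to 1231) and GGT1 (same strand, 103 to 467) were below SNRPD3 in every library. The part of these neighbours in the members' values was not tested.

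The rest of the spliceosome was read from 5 lists with 95 genes, all tested. Of these, 19 were called lower (20%, all genes 12.9%) and 9 higher (9.47%, all genes 15.7%), with a median log2 fold change of −0.38. With the replicate block 34 were lower and 9 higher, on a background of 19.8% and 20%. Leaving out 1 library, in fits whose all-gene shares ran from 7.36% to 17% lower and from 10.3% to 18.6% higher, moved the lower calls to 10 (control replicate 1), 8 (control replicate 3), 11 (CYT replicate 1 or CYT replicate 3) or 32 (CYT replicate 2). The higher calls moved to 5 and 4 without control replicates 1 and 2, to 2 without control replicate 3, and to 4 and 3 without CYT replicates 1 and 3. Other snRNP proteins had 3 lower (12.5%, near the 12.9% of all genes) and 1 higher of 24, and factors of splice site recognition and the B complex had 5 lower and 2 higher of 19. Genes of the PRPF19 complex and the catalytic steps had 2 lower and 4 higher of 24 (8.33% and 16.7%, the latter near the 15.7% of all genes). The exon junction complex had 3 lower and 1 higher of 9, and snRNP assembly and import had 6 lower and 1 higher of 19.

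Among the falls of greatest size in these lists were SNRNP35 and SMN2. SNRNP35, of the minor U11/U12 particle, had 108, 63 and 189 counts in control and 29, 9 and 15 in CYT (log2 fold change −2.59, SE 0.62, edgeR adjusted p = 0.0127). SMN2 assembles Sm rings and is a near-identical copy of SMN1, so reads of the copies cannot be divided with certainty. SMN2 had 385, 430 and 298 counts in control and 137, 58 and 51 in CYT (log2 fold change −1.93, edgeR adjusted p = 0.00736), and SMN1 was called too (−1.48).

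The rises of greatest size were ZMAT2, SLU7 and UBL5. ZMAT2, a protein of the B complex, had 845, 1161 and 1032 counts in control and 2840, 3139 and 2119 in CYT (log2 fold change 1.65, SE 0.29, edgeR adjusted p = 0.00328). SLU7, which acts in 3′ splice site choice, had 581, 805 and 510 counts in control and 1251, 2160 and 1344 in CYT (log2 fold change 1.59, edgeR adjusted p = 0.00542). UBL5, a small ubiquitin-like splicing protein, had 4269, 12256 and 4268 counts in control and 11233, 15650 and 13695 in CYT, where control replicate 2 came close to the CYT libraries (log2 fold change 1.29, edgeR adjusted p = 0.031).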

How the data were processed

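RNA sequencing of 3 control and 3 CYT libraries was used, grouped by their labels. According to the study's methods, mRNA was separated from total RNA, sequenced on a NovaSeq instrument, cleaned and aligned with Hisat2, with Stringtie named for the FPKM and "edge" software for quantification. The submitters' processing notes name FastQC 0.12.1 and the build hg38. The program that made the raw counts, its annotation and its strand setting are not given in the sources used here. The authors deposited raw counts and FPKM values per gene. Where no library had fewer than 50 counts (10160 genes), dividing count by FPKM gave 1 length per gene that varied by no more than 0.00209% among libraries, so the FPKM is the deposited count per fixed length and library total. These implied lengths exceed the longest annotated transcript for many members (for SNRPA 5547 against 1621 bases), which affects comparisons of FPKM between genes. Loci are from GENCODE 29, where all 51 members were found.

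Counts were tested with edgeR 4.0.16 in R 4.3.3 (TMM, filterByExpr with a minimum count of 10, quasi-likelihood test, no block) over 15572 genes with Benjamini-Hochberg adjustment. SE is the log2 fold change divided by the root of F. CPM values are TMM-normalized. On simulated counts in which 200 of the 15572 genes had a log2 difference of 2, edgeR recovered 132 to 150 in 3 simulations, with 2.94% to 4.46% false calls, and DESeq2 had 10.1% to 13.4% false calls. The simulations gave all genes the same spread between replicates (coefficient of variation 37.5%) and changed far fewer genes than were called here. Their error rates therefore do not carry over to these calls. No library was a copy of another (chi-square per gene 25 or more within groups). Same-numbered libraries deviated together, with correlations of 0.188, 0.458 and 0.124 for numbers 1, 2 and 3, taken as pairing from the labels' numbers, although control 1 with CYT 3 (0.303) and control 3 with CYT 1 (0.201) were also correlated.

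The members, roles, pairs, motifs and other lists were chosen with earlier results of these data known. By the rule for named genes, every member may be named, with counts in every library for the 4 markers, the DEGs and the members of pairs, and from other lists the 3 largest rises and 3 largest falls among called genes. SNURF, SNHG14, LSM12P1, SMN1 and neighbours of members were named after their values were seen. Values of 1 member, its pair and 1 gene of the other lists are not reported here, but they are in all counts and medians. Alternatives were DESeq2 1.42.0, RLE and upper-quartile scaling, dropping the filter, requiring a mean of 5 CPM, protein-coding genes only, limma 3.58.1 on log2(FPKM + 1) and log2(FPKM + 0.1), the block, a GC and length correction, leaving out each library, and, added after the data were seen, counts of pseudogenes and copies added to the member.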

Additional observations from a re-analysis of the deposited data

How the results depend on the processing

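There were 3 libraries a group, and the spread between replicates was far above counting error. Members near the threshold changed sides, and members' differences under about 1 on the log2 scale were seldom called. Of 16 called members, 9 were called in all 18 alternatives, and the same share among all called genes was not computed. The 12 members that changed sign were never called in the analysis reported, and the cause of the changes below was not tested unless an alternative's construction shows it.

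Under upper-quartile normalization the median of members was −0.34 and of the other spliceosome genes −0.23, and LSM4 was at 0.0055. Without a filter the median over all genes was 0.41, 1 member was called higher (all genes 9.2%), the median of the other genes was −0.46, and SF3B6 and SF3B5 were at −0.066 and −0.043. The median of the other genes was −0.21 with a mean of at least 5 CPM (93 genes), −0.28 over protein-coding genes and −0.27 with limma on log2(FPKM + 1). That limma fit gave 8 DEGs among members and 15 among the other genes, on a scale that shrinks low genes, and 15.3% of all genes were DEGs in it against 27.4% in the analysis reported. With pseudogene and copy counts added, 1 member was called higher (all genes 15.7%). SNRPG lost its call under upper-quartile (adjusted p = 0.0896) and RLE scaling (0.0561), without a filter (0.0743), at a minimum mean of 5 CPM (0.0756) and over protein-coding genes (0.0774), LSM3 without a filter (0.102) and with copies added (0.0501), and U2AF1L5 with limma (0.0507 and 0.0511).

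With the replicate block 34 of the other genes were lower (all genes 19.8%) and SF3B6 was at −0.00039. The block called 7 further members, each given above, and changed no other member's call. With the GC and length correction 25 members and 42 other genes were lower (all genes 26%), with medians of −0.73 and −0.55. SNRPD2, SNRPE, SF3B6 and SF3B5 were then at −0.061, −0.33, −0.61 and −0.44. With that correction and the replicate block together 26 and 42 were lower (all genes 25.5%), the medians were −0.73 and −0.53, and the same 4 members were at −0.41, −0.33, −0.62 and −0.42. SF3B6 was called in both corrected fits (adjusted p = 0.0238 and 0.0375), and SNRPC only in the one with the block (0.0154).

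Leaving out 1 library at a time, with fewer samples in each fit, 8 to 15 members were lower, 1 to 2 were higher and 9 to 16 were DEGs, with a median from −0.59 to −0.34, while 7.36% to 17% of all genes were lower, 10.3% to 18.6% higher and 17.6% to 30.8% DEGs. Of the other genes 8 to 32 were lower, 2 to 8 were higher and 10 to 32 were DEGs, with a median from −0.42 to −0.35. Members whose sign changed included those that ran from −0.10 to 0.22 for SF3B5, from −0.14 to 0.17 for SF3B6, from −0.58 to 0.49 for SNRPD2, from −0.076 to 0.55 for SNRPE, from −0.040 to 0.73 for SF3B1, from −0.014 to 0.60 for U2AF2, from −0.51 to 0.061 for SNRPC, from −0.42 to 0.060 for LSM4, from −0.48 to 0.063 for SF3B4, from −0.38 to 0.022 for SNRPA1 and from −0.35 to 0.0022 for LSM14B. No ratio between paired members reversed when 1 library was left out. In the 7 pairs whose groups did not overlap none could reverse, so this gives the ratios no support.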
